A study of Mus musculus with 8 samples.

Results

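The Ly6 genes are followed here across 8 RNA-seq libraries of sorted mouse bone marrow cells. The set is the 7 genes Ly6a, Ly6c1, Ly6c2, Ly6d, Ly6e, Ly6g and Ly6i, found by symbol among the 52097 genes of the table, and all 7 were found. Ly6a encodes Sca-1, the antigen in the name of the sorting gate. The knockouts are 3 libraries of genotype Nup214fl/fl,Mx1-Cre, in which an interferon-inducible Cre recombinase deletes the floxed Nup214 gene. They are set against 5 controls of genotype Nup214fl/fl, which carry the same floxed alleles without Cre. Mice of both genotypes were sorted 3 days after pIpC, an RNA duplex that mimics a virus and sets off interferon. The sorted cells were CD48-CD150+LSK, that is lineage-negative, Sca-1-positive and Kit-positive, a gate for haematopoietic stem cells. Because Cre was present in the knockouts alone, an effect of Cre cannot be told apart from that of Nup214 loss. Mx1-Cre is not confined to blood cells, and the ages of the mice are not stated in the labels.

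Ly6 proteins are small, cysteine-rich proteins of the cell surface that share a fold with snake venom toxins and the urokinase receptor. A glycosylphosphatidylinositol (GPI) lipid, attached in the endoplasmic reticulum, holds them in the outer leaflet of the membrane. In mouse blood they serve as antibody markers: Sca-1 for stem cells and activated lymphocytes, Ly6C for monocytes, Ly6G for neutrophils, and Ly6D for lymphoid progenitors of the B cell and plasmacytoid dendritic cell lines. Several of the genes, Ly6a and Ly6e among them, are induced by interferon.

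The libraries differed as wholes, and this bears on every Ly6 value. Levels are given in FPKM, a measure scaled for transcript length and for the total of its own library. Nup214 itself was at 9.66 to 18.2 FPKM in knockouts and 34.2 to 65.2 FPKM in controls (log2 fold change -1.66, adjusted p = 0.00029, limma). Mitochondrial genes took 37.8% to 43.3% of the FPKM total in knockouts and 5.02% to 6.66% in controls. Over the 15121 genes tested, the median log2 fold change was -0.81 as deposited and -0.03 after the libraries were rescaled by the median ratio of their genes. Both scales are therefore given, fold changes are log2, knockout minus control, on FPKM + 1, and ratios between genes of 1 library, which need no scaling, are given beside them. After rescaling, the fold change of Nup214 was -0.74 (adjusted p = 0.048, limma). Its groups then overlapped, at 14.3 to 26.9 in knockouts and 25.9 to 50.4 in controls. The estimated depth was 16.1 to 22.7 M fragments in knockouts, and 44.5, 33.8, 28.4, 20 and 26.8 M fragments in controls 1 to 5. No label ties a library to its own animal, so the p-values speak for the spread among these libraries, which may be technical.

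The members Ly6c1 and Ly6c2 lie near each other and are nearly the same in sequence, which bears on how far their values are separate. Their coding sequences were 97.7% identical, with 9 differing bases in 393, and the longest run without a difference was 188 bases. The first 150 coding bases are shown 5′ to 3′ from GENCODE M21 (GRCm38), since they hold 6 of those 9 differences, marked in capitals.
Ly6c2: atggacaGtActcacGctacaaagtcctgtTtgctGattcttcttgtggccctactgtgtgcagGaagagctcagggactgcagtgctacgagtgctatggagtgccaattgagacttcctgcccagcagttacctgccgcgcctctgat
Ly6c1: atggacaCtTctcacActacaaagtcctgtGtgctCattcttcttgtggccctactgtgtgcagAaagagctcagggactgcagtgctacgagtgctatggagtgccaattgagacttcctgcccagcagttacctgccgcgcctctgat
Of all 50-base windows in Ly6c1 transcripts, 32.8% occurred in another gene too, 379 of them in Ly6c2 and 195 in Ly6a. The share was 19.0% for Ly6a, 14.4% for Ly6c2, 4.76% for Ly6i and 0.448% for Ly6g. It was 0% for Ly6d and Ly6e, so the values of these 2 genes are the ones free of shared windows. At 100 bases the shared portion was 10.1% for Ly6c1, 5.81% for Ly6c2 and 1.45% for Ly6a, and 0 for the other members. How fragments that fit several genes had been counted was not given in the sources used here. Across the family, coding identity was 86.3% between Ly6a and Ly6i and 83.1% between Ly6a and Ly6g, but 46.1% to 52.3% between Ly6d or Ly6e and any other member.

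As deposited, 6 of the 7 genes had overlapping knockout and control values, and in 1, Ly6d, all knockouts lay below all controls. Over all tested genes, 54.5% had every knockout below every control and 7.89% had every knockout above. Ly6e, Ly6c2 and Ly6a made up nearly all of the family's signal in every library, at 97.1% to 98.7% of the summed Ly6 FPKM in knockouts and 89.5% to 96.6% in controls. Ly6e was the highest of the 7 in knockouts 2 and 3 and in controls 1, 2, 3 and 5, and Ly6c2 was the highest in knockout 1 and control 4. Ly6a came next after this pair in all libraries but control 3, where Ly6d was above it. Ly6c1 or Ly6g was the lowest. By group mean, Ly6e ranked 58th of the 15121 genes in knockouts and 79th in controls, and Ly6c2 97th and 95th. Ly6d ranked 2654th in knockouts, against 494th in controls, and was the 1 member other than Ly6c2 with a worse rank in knockouts.

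**Figure D1:**
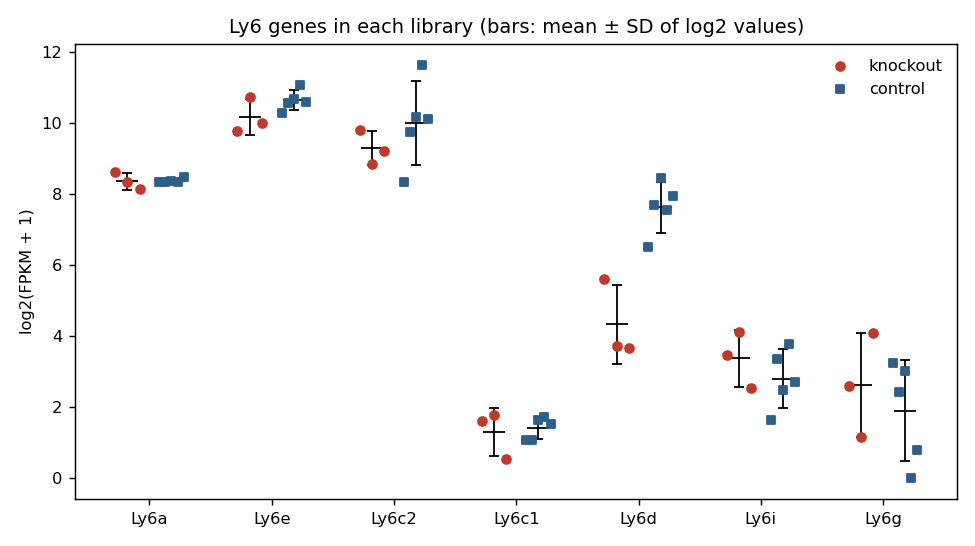
Level of each Ly6 gene on the log2(FPKM + 1) scale, 1 point per library, with knockouts left and controls right within each gene; the bars are the mean and SD of the 3 knockout and 5 control values. Ly6d is the gene whose groups stand apart, with knockouts at 11.5 to 47.7 FPKM and controls at 89.9 to 350 FPKM, while the other 6 overlap.

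Ly6a, the gene of Sca-1, was close in mean FPKM between the groups, in a gate that selects for its protein. It was at 389.72, 322.02 and 278.71 FPKM in knockouts 1 to 3. The controls were at 321.28, 319.00, 329.34, 320.78 and 354.83 FPKM. The knockouts lay on both sides of the tightly grouped controls, and the SD was 55.9 FPKM over 3 knockouts and 14.95 FPKM over 5 controls. As deposited, the log2 fold change was -0.01 ± 0.14 (SE, adjusted p = 0.97, limma), with a 95% interval of -0.31 to 0.30. After median-ratio rescaling it was 0.95 ± 0.14 (adjusted p = 0.0006, and 0.0009 to 0.0027 with any 1 library left out), and the groups then did not overlap, at 409 to 596 in knockouts and 243 to 269 in controls. On that scale 19.3% of all tested genes had every knockout above every control and 17.6% had every knockout below. Its direction and call thus depend on the scale: the fold change was 0.45 (adjusted p = 0.021) when mitochondrial genes were left out of the total and 0.79 (adjusted p = 0.0066) after quantile normalization. Of the 500 tested genes nearest to Ly6a in level, 65 had a higher fold change. In these bulk libraries fewer cells of a type and less RNA per cell cannot be told apart.

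Relative to Kit, Cd34 and Procr, which all fell, the Ly6a level was higher in every knockout than in any control, whereas relative to Slamf1 and Cd48 it overlapped. Kit, the receptor of stem cell factor and another positive antigen of the gate, was at 9.12, 3.46 and 23.4 FPKM in knockouts and 124 to 174 FPKM in controls. The Ly6a level was 11.9 to 93.1 times that of Kit within knockout libraries and 1.84 to 2.80 times within control libraries. Against Cd34, a sialomucin of stem and progenitor cells, the ratio was 23.0 to 528 in knockouts and 0.781 to 0.952 in controls. Against Procr, the endothelial protein C receptor of stem cells, it was 54.7 to 137 in knockouts and 11.5 to 26.0 in controls. None of these 3 ratios, which no scaling changes, overlapped between the groups. Kit, Cd34 and Procr themselves had every knockout below every control as deposited, as had 54.5% of all tested genes. How many other genes would give such a ratio to Ly6a was not counted. Slamf1, the gene of the gate antigen CD150, was at 4.16, 1.20 and 4.15 FPKM in knockouts and 4.13, 4.47, 3.61, 4.31 and 5.75 FPKM in controls (-0.48, adjusted p = 0.18, limma), and the Ly6a level was 67.2 to 268 times its level in knockouts and 61.7 to 91.2 times in controls. Cd48, an antigen of more committed progenitors that the gate excludes, was at 198 to 266 FPKM in knockouts and 128 to 327 FPKM in controls. Its RNA was thus above that of Slamf1 in every library, although the gate selects for CD150 and against CD48. Surface protein is not measured in these data, and the reason was not tested. Against Cd48 the Ly6a ratio was 1.05 to 1.97 in knockouts and 0.981 to 2.51 in controls. A list of 13 gate, stem and progenitor cell genes was also counted, which holds Cd48, excluded by the gate, and Flt3, a receptor of progenitors. Of these 13, 8 were lower, 1 higher (Fgd5, 1.25) and 4 not called, beside the 59.5% lower and 8.91% higher of all tested genes. The lowest p were those of Flt3 (-5.45), Meis1 (-3.95) and Hlf (-3.99). Flt3 was at 1.59 to 5.91 FPKM in knockouts and 147 to 234 FPKM in controls. On rescaled values 8 were lower, 4 higher (Cd48, Tek, Fgd5 and Ctnnal1) and 1 not called, beside the 17.1% lower and 18.7% higher of all genes. As deposited their summed level was 254 to 345 FPKM in knockouts and 1151 to 1342 FPKM in controls.

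**Figure D2:**
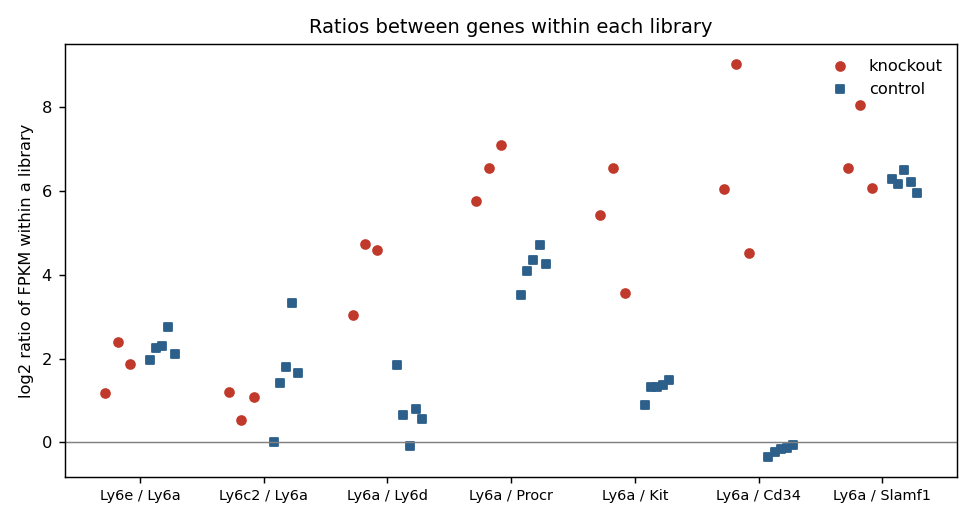
Ratio of 2 genes within each library, on a log2 axis, 1 point per library, with knockouts left and controls right for each ratio. Ly6a stands above Ly6d, Procr, Kit and Cd34 by more in all 3 knockouts than in any control, whereas Ly6a relative to Slamf1, and Ly6e and Ly6c2 relative to Ly6a, overlap.

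Sca-1 is also carried by T cells and by endothelium, and markers of both moved in the libraries. Of 15 T and NK cell genes, 14 were higher and 1 was not called, with the lowest p for the co-receptor chain Cd8b1 (2.64), Thy1 (2.28), which is itself GPI-anchored, and the granzyme Gzmb (2.58). Their sum was 2084 to 2870 FPKM in knockouts and 398 to 1011 FPKM in controls. Of 13 endothelial genes, 6 were higher, 3 lower (Pecam1, -1.34, Egfl7, -1.35, and Tie1, -0.73) and 4 not called, with Plvap (3.91), Cldn5 (3.96) and Stab2 (5.34) at the lowest p and sums of 331 to 920 FPKM in knockouts and 324.8 to 439.8 FPKM in controls. Of 12 macrophage genes tested, 11 were higher and 1 was not called, with the lowest p for Marco, Axl and Spic, with sums of 1653 to 6947 FPKM in knockouts and 309 to 411 FPKM in controls. These counts stand beside the 8.91% higher and 59.5% lower of all tested genes. On rescaled values 15 T and NK cell, 8 endothelial and 11 macrophage genes were higher. None of the 3 lists then had a lower one, so the 3 endothelial falls lost their call. Of all genes, 18.7% were higher and 17.1% lower on that scale. No gene of these 3 lists was at 0 in every library of a group. Their part in the Ly6a level was not tested.

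Ly6d was the member that fell. It was at 47.70, 12.17 and 11.53 FPKM in knockouts 1 to 3. The controls were at 89.89, 203.92, 350.35, 184.99 and 243.13 FPKM. Every knockout was below every control, although knockout 1 and control 1 were the nearest pair. The mean was 23.8 ± 20.7 FPKM (SD, n = 3) in knockouts and 214 ± 94.6 FPKM (SD, n = 5) in controls, or 9.01-fold lower in knockouts. Knockout 1 carries much of that mean: without it the knockout mean was 11.85 FPKM, or 18.1-fold lower, and without any 1 of the other libraries the difference was 7.16-fold to 10.3-fold. The log2 fold change was -3.30 ± 0.54 (SE, adjusted p = 0.00077, limma), with a 95% interval of -4.54 to -2.06. An exact two-sided permutation test over libraries gave p = 0.0179, the smallest that 3 of 8 libraries allow.

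Ly6d was the 1 member called lower, and 0 were called higher, in a comparison that called 59.5% of all tested genes lower and 8.91% higher. At an unadjusted p under 0.05 the counts were the same. The median fold change of the 7 members was -0.11, against -0.81 for all genes. The fall of Ly6d was deep for that background: 105 of the 15121 genes fell further, and 7 of the 500 genes nearest to it in level. After median-ratio rescaling its fold change was -2.37 ± 0.54 (adjusted p = 0.0089), although knockout 1, at 73.0, then overlapped control 1, at 71.5. It was -2.86 with the non-mitochondrial total and -2.40 after quantile normalization, so that it was lower on all 4 scales. The non-mitochondrial total called 39.0% of all genes lower and 11.8% higher, and quantile normalization called 20.4% lower and 16.7% higher. With any 1 library left out its adjusted p stayed under 0.05, with fold changes of -3.94 to -2.96 as deposited and -3.04 to -2.01 rescaled.

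On the rescaled values 3 members were called, 2 of them higher and 1 lower, in a comparison that called 18.7% of all genes higher and 17.1% lower. The members' median was then 0.49, against -0.03 for all genes. The 2 called higher were Ly6a and Ly6i, and the groups of Ly6i still overlapped.

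**Figure D3:**
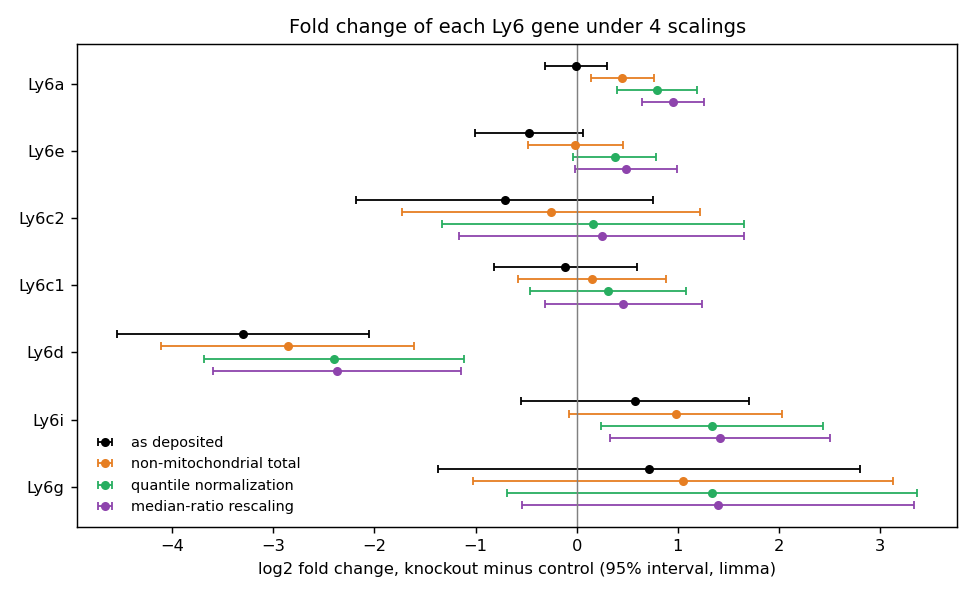
Log2 fold change of each Ly6 gene, knockout minus control, with its 95% interval from limma, under 4 scalings of the libraries. Ly6d lies below 0 under all 4, at -3.30 to -2.37; Ly6a is at -0.01 as deposited and at 0.95 after median-ratio rescaling; Ly6e, Ly6c2 and Ly6c1 change sign between scalings, and Ly6i and Ly6g stay above 0.

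Ly6d was also a smaller part of the family, a measure that needs no scaling. It made up 2.15%, 0.484% and 0.599% of the summed Ly6 FPKM in knockouts 1 to 3. Its share in controls 1 to 5 was 4.50%, 7.02%, 10.1%, 3.15% and 7.47%. The groups did not overlap. The level of Ly6a was 8.17 to 26.5 times that of Ly6d in knockouts and 0.940 to 3.57 times in controls.

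Genes of 1 cell type that carries Ly6D are set beside it. Plasmacytoid dendritic cells are the interferon-producing dendritic cells, and of 8 of their genes 5 were lower, 1 higher and 2 not called, a share of falls near the 59.5% of all tested genes, with sums of 192 to 344 FPKM in knockouts and 415 to 802 FPKM in controls. Cox6a2, a muscle-type subunit of cytochrome oxidase that marks these cells, was at 6.65 to 7.79 FPKM in knockouts and 48.1 to 134 FPKM in controls (-3.32, adjusted p = 1.4e-05, limma). The lineage factors Tcf4 (-1.93) and Spib (-2.46) and the adaptor Pacsin1 (-1.14) fell as well, and Klk1 (1.81) rose. Siglech, a sialic acid-binding lectin of these cells, was at 58.7, 15.3 and 14.1 FPKM in knockouts and 55.8, 88.2, 150, 89.1 and 157 FPKM in controls (-2.06, adjusted p = 0.0063). For both Siglech and Ly6d, knockout 1 was the highest knockout and control 1 the lowest control. On rescaled values 3 of the 8 were lower (Cox6a2, Tcf4 and Spib), 2 higher (Klk1 and Ccr9) and 3 not called, beside the 17.1% lower and 18.7% higher of all genes.

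The B lymphoid list was mixed. Of 11 genes 8 passed the filter on low values, of which 3 were lower, 1 higher and 4 not called, beside the 59.5% lower of all genes. The recombinase gene Rag1 (-0.89), the antigen receptor chain Cd79b (-0.72) and the surrogate light chain Vpreb1 (-0.72) fell, and the interleukin 7 receptor Il7r (0.75) rose. On rescaled values 1 was lower (Rag1), 3 were higher (Cd79a, Il7r and Blnk) and 4 were not called, beside the 17.1% lower and 18.7% higher of all genes. The summed level overlapped, at 91.3 to 134 FPKM in knockouts and 95.8 to 142 FPKM in controls. The part of either cell type in the fall of Ly6d was not tested.

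Ly6c2, the main gene of the monocyte antigen Ly6C, varied more within groups than between them. It was at 888.79, 461.85 and 591.28 FPKM in knockouts 1 to 3. The controls were at 322.96, 857.13, 1140.50, 3199.38 and 1108.18 FPKM. Control 4 was the highest and control 1 the lowest of all 8, so the controls enclosed the knockouts. The log2 fold change was -0.71 ± 0.64 (SE, adjusted p = 0.35, limma) as deposited, with a 95% interval of -2.18 to 0.76. It was 0.25 (adjusted p = 0.79) rescaled, so the data leave its direction undecided. Without control 4 it was -0.30, and without control 1 it was -1.13 (adjusted p = 0.054).

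The same library stood out in the monocyte genes. Control 4 was the highest library for 7 of 10 monocyte genes, whose sum was 1127 to 2978 FPKM in knockouts and 1081 to 6674 FPKM in controls. The share of all tested genes that were highest in control 4 was not counted. Lyz2, the lysozyme of monocytes and macrophages, was at 792 to 2430 FPKM in knockouts, at 5349 FPKM in control 4 and at 773 to 2189 FPKM in the other controls. F13a1, a coagulation factor of classical monocytes, was at 0.86, 6.11 and 1.07 FPKM in knockouts and 8.25, 32.0, 42.9, 194 and 35.8 FPKM in controls (-3.71, adjusted p = 0.008, limma). The 3 lower monocyte genes were F13a1, the matrix gene Fn1 (-2.64) and the lineage factor Irf8 (-1.56). The 2 higher ones were the chemokine receptor Cx3cr1 (1.19) and the lipopolysaccharide co-receptor Cd14 (1.39), and 5 were not called; 3 of 10 is below the 59.5% lower of all genes. On rescaled values 1 was lower (F13a1), 3 were higher (Csf1r, Cx3cr1 and Cd14) and 6 were not called, among them Fn1 (adjusted p = 0.083) and Irf8 (adjusted p = 0.16). Of all genes, 17.1% were lower and 18.7% higher on that scale. The part of monocytes in the Ly6c2 level was not tested.

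Ly6c1, described on endothelial cells, was near the limit of the data. It was at 2.00, 2.37 and 0.44 FPKM in knockouts and 1.08, 1.09, 2.11, 2.30 and 1.87 FPKM in controls, or an estimated 6 to 36 fragments a library. Knockout 3 was below all other libraries, and the groups overlapped. The fold change was -0.11 ± 0.32 (SE, adjusted p = 0.77, limma) as deposited and 0.46 (adjusted p = 0.33) rescaled; without knockout 3 it was 0.27 and 0.92 (adjusted p = 0.019) on those 2 scales. Its value is uncertain, since 32.8% of its windows are shared. Per unit of length Ly6c2 exceeded Ly6c1 by 195 to 1344 times in knockouts and 299 to 1391 times in controls. Summed as 1 feature the pair had a fold change of -0.71 (adjusted p = 0.35), the value of Ly6c2 alone.

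Because this pair differs so much in level and so little in coding sequence, the bases upstream of a RefSeq start of each are shown, 250 bases 5′ to 3′ (GRCm38.p6, minus strand), with matches to GAGGAAGT in capitals. This purine-rich box is of the type bound by PU.1, an ETS factor of myeloid cells, and it was picked after the sequences had been read.
Ly6c2, chr15:75111972-75112221: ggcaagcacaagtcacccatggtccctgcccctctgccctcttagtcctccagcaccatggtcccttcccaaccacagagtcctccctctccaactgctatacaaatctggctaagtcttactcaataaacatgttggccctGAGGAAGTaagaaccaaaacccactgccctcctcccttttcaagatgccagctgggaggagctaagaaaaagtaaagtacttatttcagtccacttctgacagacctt
Ly6c1, chr15:75048838-75049087: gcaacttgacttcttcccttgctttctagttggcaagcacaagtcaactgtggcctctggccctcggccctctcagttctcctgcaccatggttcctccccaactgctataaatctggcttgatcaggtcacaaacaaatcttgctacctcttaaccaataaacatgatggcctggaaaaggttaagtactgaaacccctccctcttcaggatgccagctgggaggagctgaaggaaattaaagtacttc
The Ly6c2 window held the box at -108 and the Ly6c1 window held none. RefSeq lists a second start for each, and the windows upstream of those held it in both genes, at -142 and -8 for Ly6c2 and at -127 for Ly6c1. The match thus depends on the start chosen. Of 32851 windows of this length searched on both strands, 2.44% held it. Ly6g, the third member with an entry, held it at -31 and -99 of its 2 starts. None of the 6 windows held the core of the interferon-stimulated response element or TTCNNNGAA, the STAT palindrome, which were in 2.98% and 7.02% of all windows.

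Ly6g, the neutrophil antigen, was low and scattered. It was at 4.98, 1.23 and 15.92 FPKM in knockouts. In controls it was at 8.43, 4.34, 7.09, 0.00 and 0.71 FPKM. Knockout 3 was the highest library, control 4 was listed at 0, and the groups overlapped. The fold change was 0.72 ± 0.91 (SE, adjusted p = 0.50, limma) as deposited and 1.40 (adjusted p = 0.24) rescaled, and without knockout 3 it was -0.020 as deposited.

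Its nearest genes by pattern were neutrophil genes. Over the 8 libraries, the 3 highest correlations with Ly6g among 15120 genes were those of Lcn2 (r = 0.941), an iron-siderophore-binding granule protein, Itgb2l (r = 0.936), an integrin chain, and Mmp9 (r = 0.932), the granule gelatinase. These are correlations across libraries that share the group difference and are given as a description. Mmp9 was at 14.95, 1.79 and 56.71 FPKM in knockouts and 15.03, 5.41, 10.25, 0.69 and 4.22 FPKM in controls, with knockout 3 the highest and control 4 the lowest, as for Ly6g. Knockout 3 was the highest library for 6 of 11 neutrophil genes, whose sum was 1759 to 7265 FPKM in knockouts and 780 to 3578 FPKM in controls. The share of all tested genes that were highest in knockout 3 was not counted. Of the 11 neutrophil genes, 1 was called, the receptor Csf3r, which was lower (-1.67), beside the 59.5% lower and 8.91% higher of all genes. Next by p were Cxcr2 (1.37, adjusted p = 0.058, limma) and S100a9 (1.44, adjusted p = 0.099). On rescaled values 3 of the 11, S100a8, S100a9 and Cxcr2, were higher and Csf3r was lower. Of all genes, 18.7% were then higher and 17.1% lower. The part of neutrophils in the Ly6g level was not tested.

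**Figure D4:**
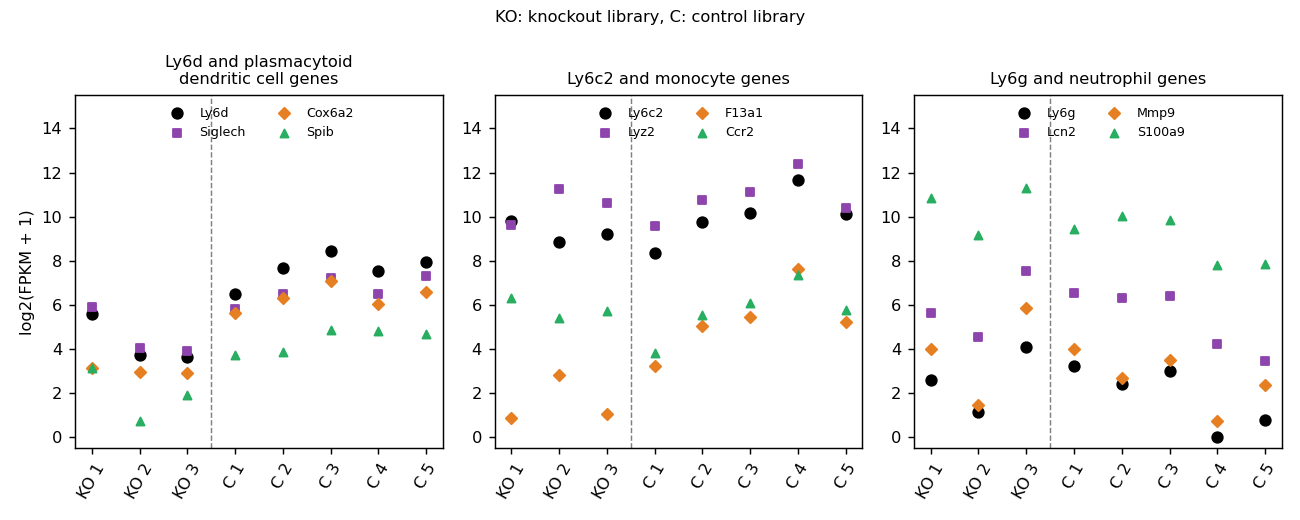
Level in each library on the log2(FPKM + 1) scale of Ly6d, Ly6c2 and Ly6g, each beside 3 genes of a cell type known for it. The dashed line parts the knockouts, left, from the controls. The 3 genes were picked from longer lists by no fixed rule. Genes of those lists that are not shown include some that moved otherwise, such as Klk1, Cx3cr1, Cd14 and Csf3r. Ly6d and Siglech are both highest among knockouts in replicate 1, Ly6c2 and Lyz2 both peak in control 4, and Ly6g and Mmp9 both peak in knockout 3.

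Ly6i, a close relative of Sca-1 described on myeloid cells, had a call that depended on the scale. It was at 9.91, 16.29 and 4.77 FPKM in knockouts and 2.08, 9.23, 4.59, 12.64 and 5.52 FPKM in controls. Knockout 2 was the highest and control 1 the lowest, and the groups overlapped. The fold change was 0.58 ± 0.50 (SE, adjusted p = 0.33, limma) as deposited. Rescaled, it was 1.42 ± 0.48 (adjusted p = 0.046), a call that was kept without control 4 or without knockout 3 and missed without any 1 of the other 6 libraries, where the adjusted p was 0.051 to 0.16. The rescaled groups still overlapped, at 6.99 to 24.2 in knockouts and 1.65 to 9.56 in controls. The gene most like Ly6i was Bcl3 (r = 0.990), a nuclear regulator of NF-kB, followed by Skp2 (r = 0.947) and Il13ra1 (r = 0.941).

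Ly6e, a broadly expressed member that is also induced by interferon, was the most abundant. It was at 874.20, 1696.15 and 1021.42 FPKM in knockouts. In controls it was at 1251.19, 1509.41, 1631.04, 2161.82 and 1539.65 FPKM. Knockouts 1 and 3 were below all controls and knockout 2 was above 4 of them. The fold change was -0.47 ± 0.24 (SE, adjusted p = 0.10, limma) as deposited and 0.49 ± 0.23 (adjusted p = 0.12) rescaled, so its direction turned with the scale. It was -0.01 with the non-mitochondrial total. Without knockout 2 it was called lower as deposited (-0.75, adjusted p = 0.013). Relative to Ly6a it overlapped, at 2.24, 5.27 and 3.66 times in knockouts and 3.89 to 6.74 times in controls. The genes most like it were Tpd52 (r = 0.986), Tmem167b (r = 0.986) and Hadhb (r = 0.984).

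The remaining likeness values differed in kind. For Ly6d 1986 genes reached r of 0.9 or more, led by Kif5b, Zfp758 and Trmt2b (r = 0.989 to 0.991), and all 3 were lower in knockouts, so the group difference enters these values. Ly6c2 was most like Acot9 (r = 0.974), Evi2a and Sgms2 (both r = 0.969), for which control 4 was the highest library. Ly6a was most like Egfl8 (r = 0.959), Ighd (r = 0.948) and Trbv19 (r = 0.935), a lymphocyte receptor gene segment like Ighd, and Ly6c1 was most like Pacs2 (r = 0.924). Between members the strongest values were -0.73 for Ly6c1 with Ly6g and -0.72 for Ly6e with Ly6g, and 0.64 for Ly6a with Ly6c1.

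Interferon target genes, a class to which Ly6a and Ly6e also belong, were mixed as deposited. The list used here has 25 such genes and holds neither Ly6a nor Ly6e. Of the 25, 4 were higher, 4 lower and 17 not called, beside the 8.91% higher and 59.5% lower of all genes. Their median fold change was -0.09, against -0.81 for all genes. Those higher were Ifit3 (2.26), an RNA-binding antiviral protein, the factor Irf7 (1.22), Zbp1 (0.95), a sensor of Z-form nucleic acid, and Rtp4 (0.41). Those lower were Irf9 (-0.92), which recruits the interferon STAT complex to DNA, Mx2 (-0.92), Ifitm3 (-1.10) and Irf1 (-0.39). On rescaled values 19 were higher and 6 not called, beside the 18.7% higher and 17.1% lower of all genes. The median of the 25 genes was then 0.84, against -0.03 for all genes. That median was close in size to the 0.95 of Ly6a and above the 0.49 of Ly6e. Knockout 2 was the highest library for 13 of the 25 genes, and also for Ly6e among the knockouts, but not for Ly6a. This was not particular to the list, since knockout 2 was also the highest for 11 of 12 macrophage and 9 of 13 endothelial genes. The share of all tested genes that were highest in knockout 2 was not counted. Both groups had received pIpC, and no library without it was analysed here.

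Genes that build and attach the GPI anchor of these proteins are set beside the Ly6 genes here. Of 29 tested, 23 were lower, 1 higher and 5 not called, beside the 59.5% lower and 8.91% higher of all genes, with a median of -0.97 against the -0.81 of all genes. Pigp (-2.11) and Pigx (-1.89), subunits of the transferases that start and extend the anchor, and Dpm3 (-2.01), which tethers the synthase of its mannose donor, had the lowest p. Piga, the catalytic subunit of the first step, was at 1.72 to 2.79 FPKM in knockouts and 5.38 to 6.37 FPKM in controls (-1.12, adjusted p = 0.00046, limma). Pigz (1.62), a mannosyltransferase for a side residue, was the 1 that rose. On rescaled values 5 were lower, 5 higher and 19 not called, beside the 17.1% lower and 18.7% higher of all genes. The median was then -0.11 against -0.03, and Pigp, Pigx and Dpm3 were among those lower.

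Relatives of the Ly6 genes in the wider Ly6 and urokinase receptor family were mostly too low to test. Of 32 listed genes 30 were found and 8 passed the filter, of which 2 were higher and 5 lower as deposited, beside the 8.91% higher and 59.5% lower of all genes. Gpihbp1, which carries lipoprotein lipase to the capillary lumen, is also 1 of the 13 endothelial genes counted above. It was at 19.25, 87.69 and 14.48 FPKM in knockouts. In controls it was at 0.00, 0.10, 0.91, 0.00 and 0.13 FPKM. All knockouts were far above all controls (4.67, adjusted p = 5.8e-05, limma). Knockout 2 was the highest, as it was for Plvap, Cldn5 and Stab2 of the same endothelial list. Ly6g5b (1.26, adjusted p = 0.014) was the other that rose. The 5 lower were Plaur, the urokinase receptor (-0.72), the complement inhibitors Cd59a (-1.32) and Cd59b (-1.62), the nicotinic receptor modulator Lynx1 (-1.02) and Lypd6b (-1.14). On rescaled values the same 2 were higher and none of the 5 falls passed the test.

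The members lie together on chromosome 15, and their neighbours did not move as a block. Ly6d spans chr15:74762056-74763620, Ly6e chr15:74955051-74959905, Ly6i chr15:74979534-74983430 and Ly6a chr15:74994877-74998031 (GRCm38). They are followed by Ly6c1 at chr15:75044018-75048830, Ly6c2 at chr15:75108158-75111970 and Ly6g at chr15:75155240-75159126. Ly6e and Ly6g are on the plus strand and the other 5 on the minus strand. The stretch of 885 kb that runs from Psca to Gpihbp1 held 46 genes of the table, 25 of them protein-coding. Of these 10 were tested, 1 was higher (Gpihbp1), 2 were lower (Lynx1 and Ly6d) and 7 were not called. Over all tested genes 8.91% were higher and 59.5% lower.

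Beyond the protein-coding genes, 4 others of the stretch passed the filter and were picked after their values had been seen. The transcribed pseudogene 9030619P08Rik was at 10.28, 0.90 and 7.43 FPKM in knockouts. In controls it was at 153.34, 191.72, 197.51, 166.75 and 215.37 FPKM. Its groups were far apart, and its fold change of -5.03 (adjusted p = 5.6e-05, limma) was larger in size than that of Ly6d. Gm5960, a pseudogene beside Ly6c2, was at 0.62, 0.45 and 0.40 FPKM in knockouts and 0.34, 9.92, 5.99, 52.07 and 12.18 FPKM in controls (-2.65, adjusted p = 0.042). It was highest in control 4 and lowest in control 1, as Ly6c2 was. The pseudogene I830127L07Rik, next to Ly6g, was also highest in control 4 (-1.19, adjusted p = 0.15), and the provisional gene model Gm37042 beside Ly6a was higher in knockouts (1.30, adjusted p = 0.00076).

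**Figure D5:**
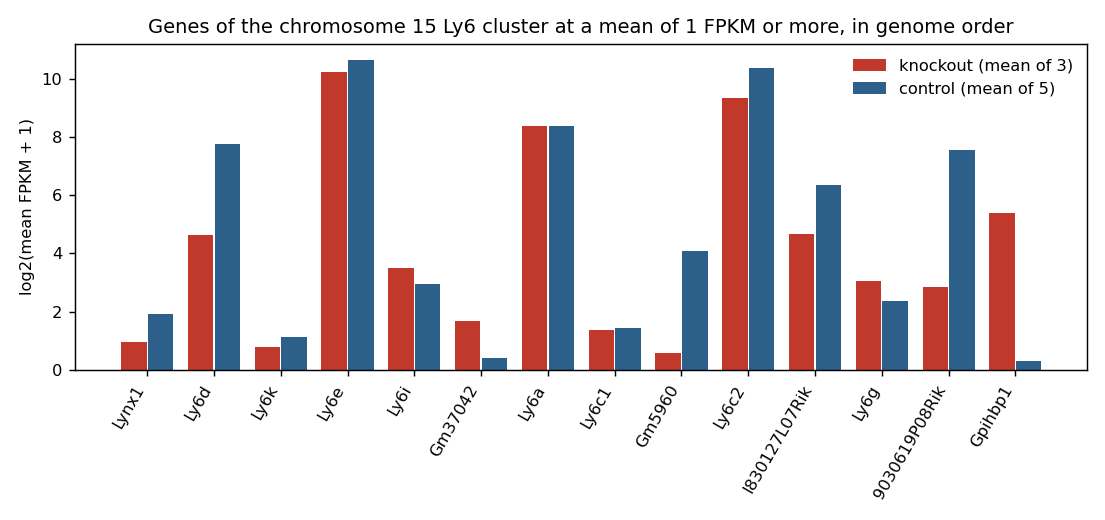
Mean level of the genes of the chromosome 15 stretch with a mean of at least 1 FPKM in either group, in genome order, as log2(mean FPKM + 1), knockouts (3 libraries) left and controls (5 libraries) right for each gene. Ly6d and 9030619P08Rik are far lower in knockouts, Gpihbp1 is far higher, and the bars of Ly6a are level.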

How the data were processed

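The deposited table holds FPKM values, computed by the authors, for 52097 genes in 8 libraries. Per the labels' protocols, RNA was extracted with a miRNeasy kit, amplified by Geo-seq, a method for few cells, and made into libraries with a TruePrep transposase kit. Bowtie 0.12.9, Cufflinks 2.1.1, HTSeq, DESeq2 and the build mm10 are named, without roles, per the submitters' processing notes; the annotation and strand setting are not given in the sources used here, so overlapping antisense genes cannot be told apart. Amplification from few cells can widen the spread of low genes such as Ly6c1 and Ly6g.

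Symbols came from GENCODE M21 (GRCm38), and all identifiers matched. limma 3.58.1 (R 4.3.3; limma-trend, robust) was fitted on log2(FPKM + 1) over the 15121 genes that reached 1 FPKM in 3 or more libraries, with Benjamini-Hochberg adjustment over them and a threshold of 0.05. The pseudocount understates fold changes of low genes. All 7 members passed the filter. Left-out-library fits kept the same genes. Median-ratio rescaling divided each library by its median ratio to the genes' geometric means.

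Depth is not stated. It was estimated from the step of low FPKM values times transcript length, which fell within 0.15 fragments of whole numbers for 66.4% to 88.1% of values, against 29.2% to 32.0% with lengths shuffled; the counts of fragments are therefore estimates. On simulated data for the same 15121 genes, with 200 changed in each of 5 draws, the fit recovered 47.8% of 2-fold and 89.2% of 4-fold changes, and 5.93% of its calls were false. The simulation used normal noise with the same SD in both groups, rises and falls in equal number, and no shift between libraries. The real comparison called 59.5% of genes lower and 8.91% higher, so these shares do not carry over to it. Sequences were compared with Biopython 1.88.

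The 7 members and the gene lists were chosen with earlier results of these data known. Named genes are the members, Nup214, tested relatives, the 3 genes of lowest p in each list with genes set beside a member, and the 3 genes most like each member. Others were named to resolve small counts, after their values were seen. Erythroid genes were also checked: of 9 tested, 2 were higher and 4 lower, beside the 8.91% higher and 59.5% lower of all genes. Their sums were 128 to 382 FPKM in knockouts and 510 to 819 FPKM in controls, and Car2, Hba-a1 and Klf1 had the lowest p.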

Additional observations from a re-analysis of the deposited data

Results flagged for a closer look

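For 16 genes the 5 controls were searched for a library far from the other 4, and 3 were found; chance alone flags about 1 in 20 such groups. Ly6a was at 354.83 FPKM in control 5, above the 319.00 to 329.34 FPKM of the other controls. Ly6c2 was at 3199.38 FPKM in control 4, the library that was also highest for 7 of 10 monocyte genes. Gpihbp1 was at 0.91 FPKM in control 3, where the other controls were at 0.00 to 0.13 FPKM and the knockouts at 14.48 to 87.69 FPKM.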

How the results depend on the processing

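The fall of Ly6d kept its direction in all 25 alternatives and its call in 23. It missed the threshold with the replicate block (-3.22, adjusted p = 0.097, limma) and with rescaling and block together (-2.31, adjusted p = 0.25), where 0 members were called lower. Replicate numbers are shared by 3 libraries of each group, and the labels state no block. Deviations from the group means correlated at -0.04, 0.03 and -0.04 between same-numbered libraries. These values cannot show whether such libraries share a batch, since pairs of different numbers were not set beside them. The block gave 1232 higher and 7607 lower genes, against 1348 and 8997 without it. Ly6a (0.017), Ly6c1 (0.036) and Ly6g (-0.28) changed sign under the block without a call.

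Rescaling turned the sign of 4 members: by median ratio to 0.95 for Ly6a, 0.46 for Ly6c1, 0.25 for Ly6c2 and 0.49 for Ly6e, by quantiles to 0.79, 0.31, 0.16 and 0.38, and with rescaling and block to 0.96, 0.59, 0.82 and 0.61. The non-mitochondrial total turned Ly6a (0.45) and Ly6c1 (0.15). Ly6i passed the threshold with median ratio (1.42) and with the block added (1.69). Members called higher numbered 0 as deposited, 2 by median ratio with or without the block, and 1 by quantiles or non-mitochondrial total.

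With 1 library left out, fold changes ranged as deposited over -0.13 to 0.11 for Ly6a, -0.34 to 0.27 for Ly6c1, -1.13 to -0.30 for Ly6c2, -0.75 to -0.27 for Ly6e, -0.020 to 1.44 for Ly6g and 0.20 to 0.99 for Ly6i, and rescaled over 0.81 to 1.08, 0.19 to 0.92, -0.16 to 0.65, 0.21 to 0.67, 0.63 to 2.19 and 1.03 to 1.86. Members called lower numbered 1 to 2 and higher 0 as deposited; rescaled, 1 to 3 were higher. The cause of these changes was not tested. Ly6c1 is not in the stricter filter's genes. Higher and lower genes in all numbered 2827 and 2583 by median ratio (2027 and 1588 with block), 2530 and 3079 by quantiles, 1790 and 5898 by non-mitochondrial total, 3561 and 8203 with no filter and 581 and 7122 with the stricter one. Of the counts over other gene lists, 180 moved by over 1.5 times and 420 did not. Ly6c1 rests on an estimated 6 to 36 fragments a library and Ly6g on 0 to 269.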
